A study of Mus musculus with 2 samples.

Results

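The genes described here encode the nuclear-coded parts of the mitochondrial respiratory chain and ATP synthase. They were chosen by gene symbol in the platform annotation: symbols starting with Nduf, Uqcr or Atp5, the genes Sdha, Sdhb, Sdhc and Sdhd, and the Cox4i, Cox5, Cox6, Cox7 and Cox8 subunits apart from Cox7b and Cox7b2. The rule used no measured value, although it was set with earlier results of these data known. It took in 89 of the 18193 genes that had a probe set assigned to 1 gene, with 178 of 34945 such probe sets. A further 10 probe sets listed a matching symbol together with another gene and were given no value, which left 8 symbols without a measurement. Mouse embryonic stem (ES) cells carrying a knockout (KO) of Dnmt1, the enzyme that copies DNA methylation onto newly made strands, were compared with a control culture as a reference for other experiments on stem cell differentiation. There was 1 Affymetrix mouse expression array for each, labelled from total RNA. The labels used here state no strain, passage, clone or deleted exon for either culture, and both samples carry a source name that describes a control, so the KO is identified by its title. With 1 array per group every value is a single measurement, no test between the groups was possible, and no difference can be set against a spread between cultures.

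The respiratory chain moves electrons from NADH and succinate to oxygen through complexes I, II, III and IV of the inner mitochondrial membrane, and complex V, the ATP synthase, uses the resulting proton gradient to make ATP. Most subunits are encoded in the nucleus and must be made in balance with one another and with the few subunits encoded by mitochondrial DNA. Their promoters are typically rich in CpG, and the transcription factors NRF1, GABP of the ETS family, YY1 and ESRRA are known regulators of many of them. Several subunits have a second form used in muscle, lung or testis. Pluripotent stem cells are known for relying heavily on glycolysis.

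Signals are linear intensities as deposited. A signal under the median of its array was raised to that median, called the floor here, which was 60.9 for the control and 74.2 for the KO. A gene's value is that of its brightest probe set. Brightness differs between probes for reasons other than transcript level, so signals rank no gene against another. The KO array was brighter as a whole, so that the median gene lay 0.43 higher on the log2 scale. Ratios below are KO over control on the log2 scale relative to this shift, unless called as deposited. Dnmt1 itself went from 1949.1 on the control array to 262.1 on the KO array, a log2 ratio of -3.32, although where its probes lie relative to the deleted part was not examined. All 10 measured ES cell markers were above the floor on both arrays, including Pou5f1 (2689.7 and 3297.0) and Sox2 (5436.6 and 6962.0). Nanog (592.5 and 1965.5, ratio 1.30) and Esrrb (361.8 and 1098.1, ratio 1.18) were over 2-fold higher on the KO array, and Utf1 and Fgf4 had -0.62 and -0.51. Feeder cells, where used, are fibroblasts, and 7 of 11 fibroblast markers lay under both floors (Col3a1, Dcn, Lum, Postn, S100a4, Pdgfrb and Twist2), with Col1a1 near them (94.3 and 80.2). The other 3 fibroblast markers were above both floors, namely Acta2 (527.0 and 695.1), Thy1 (340.0 and 549.8) and Col1a2 (172.9 and 190.9), and their part in the ratios below was not tested. The summed fibroblast signal was 1293.8 for the control and 1677.9 for the KO, and that of 7 endoderm markers, 3 of them under both floors, was 304.2 and 413.6. Probe sets of the same gene differed with an SD of 0.24 over 4704 genes, and of 0.21 over the 44 respiratory chain genes that had several measured on both arrays; this SD is used below as a technical scale. In bulk RNA, a change in the number of cells of a type and a change in RNA per cell cannot be told apart.

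Promoters of the genes on which the results turn are shown first. The RefSeq promoter table (GRCm38.p6) held 78 windows, each from 250 bases before to 50 bases after a transcription start, for 73 of the 89 genes. The 250 bases before the start of 3 paralog groups are printed 5′ to 3′ with each CpG in capitals: the ubiquitous and testis forms of a complex IV subunit (Cox6b1 and Cox6b2), the ubiquitous and muscle forms of another (Cox7a2 and Cox7a1), and the genes for the membrane ring of the ATP synthase (Atp5g1, Atp5g2 and Atp5g3).
Cox6b1 (chr7:30626115-30626364, minus strand): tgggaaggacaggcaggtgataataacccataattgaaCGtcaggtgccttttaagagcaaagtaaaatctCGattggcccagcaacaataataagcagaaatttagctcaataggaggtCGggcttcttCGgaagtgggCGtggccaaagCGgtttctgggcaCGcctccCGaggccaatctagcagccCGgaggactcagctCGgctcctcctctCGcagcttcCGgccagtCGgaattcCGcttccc
Cox6b2 (chr7:4753095-4753344, minus strand): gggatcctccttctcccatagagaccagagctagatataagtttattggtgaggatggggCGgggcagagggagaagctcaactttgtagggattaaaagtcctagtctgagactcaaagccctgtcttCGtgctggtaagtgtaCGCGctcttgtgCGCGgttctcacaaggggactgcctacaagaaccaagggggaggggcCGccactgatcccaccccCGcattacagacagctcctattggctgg
Cox7a2 (chr9:79759854-79760103, minus strand): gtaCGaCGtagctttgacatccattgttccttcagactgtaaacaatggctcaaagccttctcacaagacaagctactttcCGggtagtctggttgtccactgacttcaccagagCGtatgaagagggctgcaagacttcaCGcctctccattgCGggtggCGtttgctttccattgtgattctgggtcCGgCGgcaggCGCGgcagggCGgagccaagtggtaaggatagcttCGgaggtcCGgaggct
Cox7a1 (chr7:30183921-30184170, plus strand): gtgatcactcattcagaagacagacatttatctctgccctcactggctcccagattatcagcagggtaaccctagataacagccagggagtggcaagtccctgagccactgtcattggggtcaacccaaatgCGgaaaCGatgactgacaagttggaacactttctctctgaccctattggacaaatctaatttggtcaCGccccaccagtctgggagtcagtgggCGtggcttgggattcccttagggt
Atp5g1 (chr11:96075632-96075881, minus strand): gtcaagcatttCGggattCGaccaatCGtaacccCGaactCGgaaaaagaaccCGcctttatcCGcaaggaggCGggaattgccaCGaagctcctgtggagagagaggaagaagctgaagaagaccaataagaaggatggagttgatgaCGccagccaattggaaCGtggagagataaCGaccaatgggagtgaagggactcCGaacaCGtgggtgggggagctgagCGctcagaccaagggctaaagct
Atp5g2 (chr15:102671048-102671297, minus strand): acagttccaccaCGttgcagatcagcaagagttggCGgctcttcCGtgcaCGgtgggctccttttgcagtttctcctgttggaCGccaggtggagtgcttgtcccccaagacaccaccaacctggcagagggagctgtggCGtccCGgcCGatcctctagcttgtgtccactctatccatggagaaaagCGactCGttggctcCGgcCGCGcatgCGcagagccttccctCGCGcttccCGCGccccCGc
Atp5g3 (chr2:73911327-73911576, minus strand): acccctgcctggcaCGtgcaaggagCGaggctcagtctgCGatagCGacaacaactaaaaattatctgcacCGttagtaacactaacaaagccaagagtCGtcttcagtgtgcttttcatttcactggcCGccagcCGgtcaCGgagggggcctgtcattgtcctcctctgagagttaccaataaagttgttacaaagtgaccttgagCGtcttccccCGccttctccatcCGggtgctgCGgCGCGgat
The stretches of Cox6b2 and Cox7a1 held 8 and 4 CpG dinucleotides, against 14 in each of Cox6b1 and Cox7a2. Those of Atp5g1 and Atp5g3 each held 15, and that of Atp5g2 held 19.

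The letters of the NRF1 motif were the most frequent of the regulators searched, and 4 promoters that hold them are printed with the matches in capitals and 25 flanking bases where the stretch before the start allows.
Sdha (chr13:74350241-74350363, minus strand): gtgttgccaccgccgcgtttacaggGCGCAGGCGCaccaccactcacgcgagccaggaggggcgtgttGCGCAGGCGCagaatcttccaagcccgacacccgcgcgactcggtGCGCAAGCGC
Sdhd (chr9:50603894-50603953, minus strand): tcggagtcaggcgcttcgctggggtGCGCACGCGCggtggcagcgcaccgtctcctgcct
Cox6a1 (chr5:115349041-115349145, minus strand): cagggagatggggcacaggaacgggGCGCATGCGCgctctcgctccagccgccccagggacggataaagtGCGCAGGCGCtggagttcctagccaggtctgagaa
Ndufaf4 (chr4:24897945-24898004, plus strand): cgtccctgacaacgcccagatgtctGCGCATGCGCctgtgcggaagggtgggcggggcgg
The Sdha stretch held 3 matches, the last of them ending 1 base before the start, and that of Cox6a1 held 2. The search used GCGCA, any base and GCGC in a row for NRF1, CCGGAAGT for the ETS family, AAGATGGC for YY1, TCAAGGTCA for ESRRA and TATAAA for a TATA box, on both strands of the 300-base windows. None of these motifs contains another, although matches on opposite strands were counted once per window.

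NRF1 letters were present in 18 of the 78 windows (23.1%), against 9.89% of 11424 windows of the other genes above the floor on both arrays and 4.60% of all 32851 windows. YY1 letters were present in 12.8%, against 4.32% and 2.75%. The ETS letters were present in 6.41% of the windows, against 7.97% of those of the other genes above the floor. A ratio of observed to expected CpG over 0.6 was found in 67 of the 78 windows (85.9%), against 69.9% and 35.8%. The lowest ratios were those of Cox8b (0.115), Cox7a1 (0.333) and Cox6b2 (0.432), all genes with tissue-restricted use. The other tissue forms of complex IV, Cox4i2, Cox6a2 and Cox8c, had no window, so their CpG ratios are not known here. Among genes measured on both arrays, the 16 with NRF1 letters had a median log2 ratio of 0.03 (range -0.23 to 0.24), and the 55 without had 0.02 (-0.63 to 0.53). A match is a description of the window and not a binding site.

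**Figure D1:**
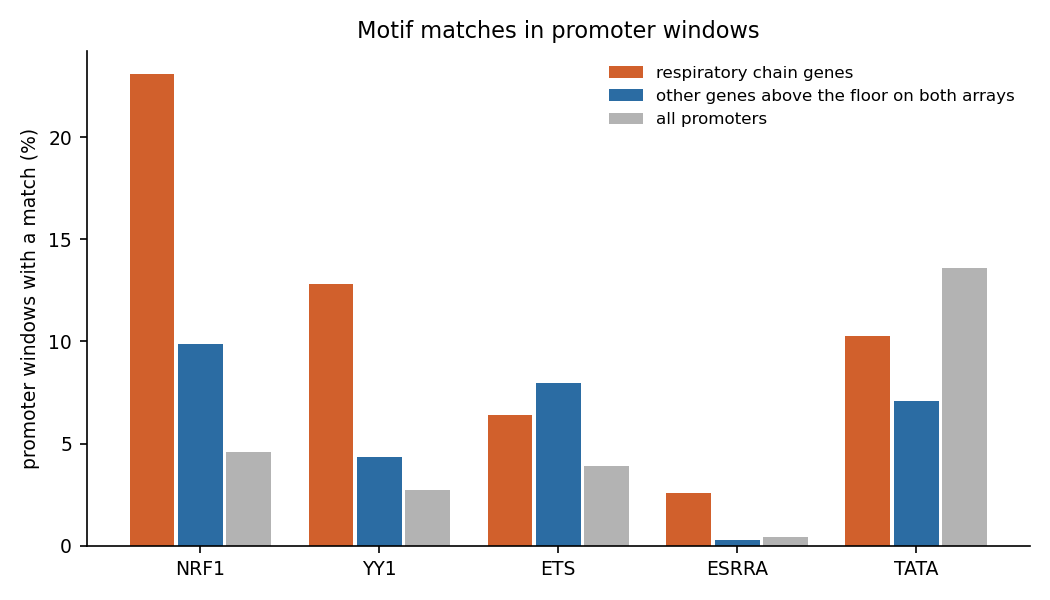
Percent of promoter windows (vertical axis) that hold each motif's letters, for the respiratory chain genes, the other genes above the floor on both arrays, and all windows of the table. NRF1 letters were in 23.1%, 9.89% and 4.60% of the windows.

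The respiratory chain as a whole kept pace with the median gene. Both arrays measured 86 of the 89 genes above the floor, 1 passed it on the KO array alone and 2 passed it on neither. None of the 87 measured genes was 2-fold higher or lower relative to the shift, where 1.09% of all 12226 measured genes were 2-fold higher and 0.532% were 2-fold lower. None was 2-fold different as deposited either, against 4.92% higher and 0.0982% lower over all genes. At 1.5-fold, none was higher and 1 was lower, where the shares over all genes were 4.74% and 4.25%. Their median log2 ratio relative to the shift was 0.01, and without centring it was 0.44, beside 0 and 0.42 over all genes. Of the 86 genes, 40 (46.5%) lay below the shift, where 50% of 10995 genes did so by construction. As deposited, 83 of the 86 were brighter on the KO array, where 91.4% of all genes were. The 3 that were dimmer were Ndufb1, Cox4i2 and Ndufa13.

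**Figure D2:**
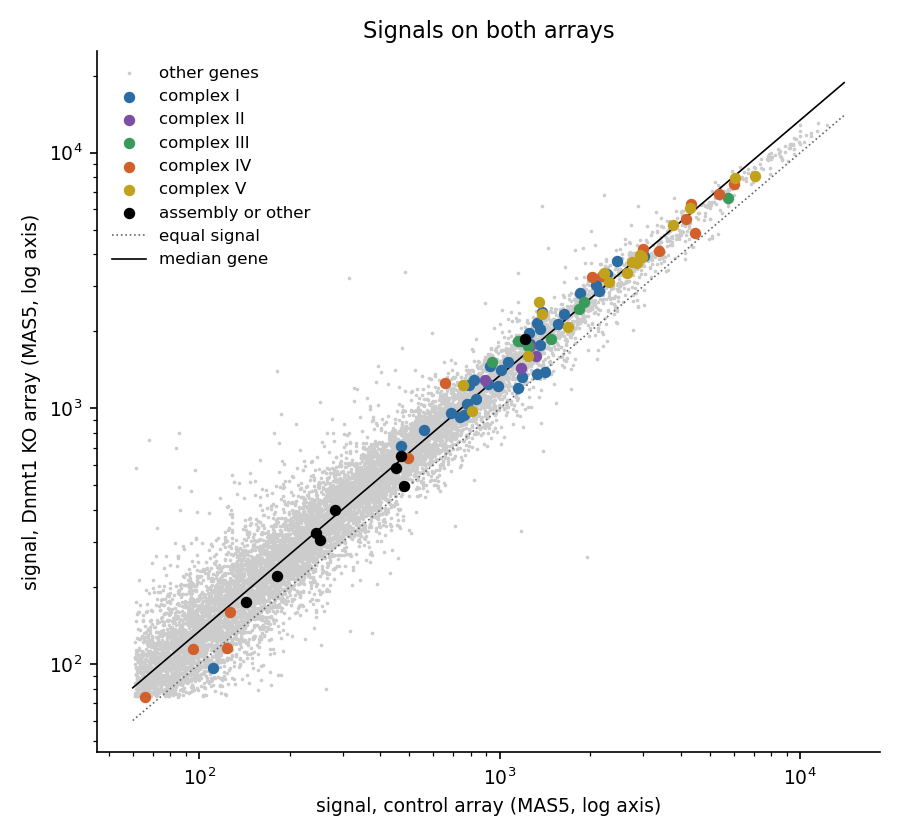
Signal on the control array (horizontal, log axis) and on the Dnmt1 KO array (vertical, log axis) for genes above the floor on both arrays, with the respiratory chain genes coloured by complex. The coloured points lie along the line of the median gene, 1.34-fold above equal signal, and most of the brightest genes of the array, 155 of 192 other genes with a mean signal of 4000 or more, lie below that line.

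The ratios of these genes were closely grouped. Their SD across 86 genes was 0.21, and the interquartile range was 0.25. The other genes measured on both arrays had an SD of 0.35 and an interquartile range of 0.38. Many of the other genes were dimmer, so the comparison was repeated over the signal range that holds the middle 80% of the respiratory chain genes (308 to 4543, mean of both arrays). There the SD was 0.19 over 68 respiratory chain genes and 0.31 over 5376 other genes. The other genes were still dimmer within that range, with a median control signal of 559.85 against 1260.55, so brightness was not matched. At a mean signal of 4000 or more the gap was small, with an SD of 0.14 over 10 members and 0.17 over 192 other genes. The SD across the respiratory chain genes was of the size of the SD between probe sets of a single gene (0.21). Of the 86 genes, 69 (80.2%) lay within 1 such SD over all genes (0.24) of the shift, as did 59.7% of the whole set of genes measured on both arrays. These shares were not matched for signal. Close grouping was not particular to the respiratory chain genes. In the lists read below, the SD was 0.13 for the citric acid cycle list and 0.23 for mitochondrial ribosomal proteins. It was 0.25 for regulators and mitochondrial DNA genes, 0.27 for assembly genes, 0.36 for glycolysis and 0.51 for the list outside the symbol rule.

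**Figure D3:**
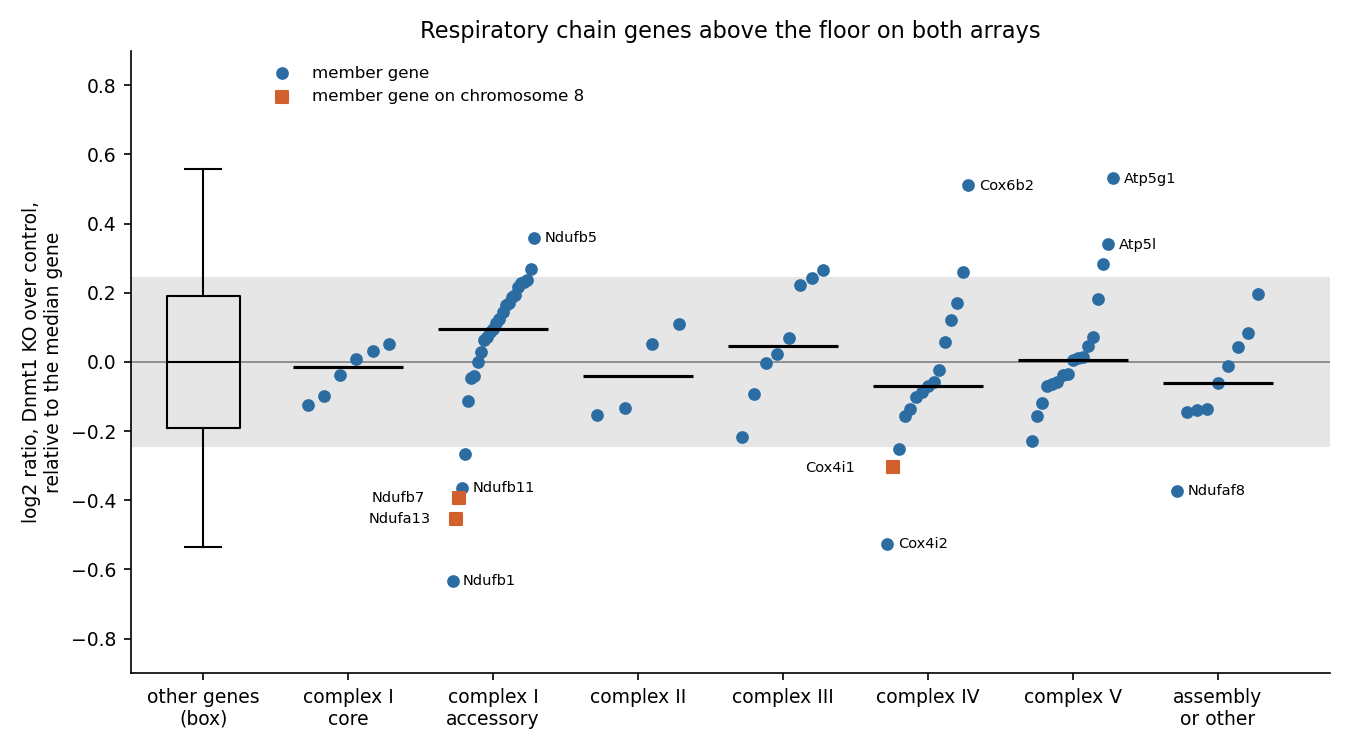
Log2 ratio of each gene above the floor on both arrays (vertical axis), by complex, with a black line at the median of each class. The box shows the other genes (median and quartiles, whiskers at the 5th and 95th percentiles), the grey band is the SD of 0.24 between probe sets of a gene, and squares mark Cox4i1, Ndufb7 and Ndufa13 on chromosome 8.

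By complex, median log2 ratios were 0.06 for complex I (33 genes), -0.04 for complex II (4 genes), 0.05 for complex III (8 genes), -0.07 for complex IV (15 genes) and 0.01 for complex V (17 genes). With 1 array per group, differences between these medians have no replicate error to be set against. As deposited all 5 were above 0, at 0.49, 0.38, 0.47, 0.36 and 0.43. The sign of the complex IV median depended on the scaling, since it was 0.00033 with quantile normalization and 0.02 with lowess. Of the 10 members with a mean signal of 4000 or more, 5 belong to complex IV. Genes with such signals lay low on this array pair, with a median of -0.14 over 192 other genes and -0.05 over the 10 members. The part of this trend in the complex IV median was not tested beyond the lowess value.

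Complex I takes electrons from NADH. Its core subunits, which bind the flavin and the iron-sulfur clusters, had log2 ratios from -0.12 to 0.05 over 6 genes on their brightest probe sets (SD 0.07). Ndufv1, which carries the NADH-binding flavin, went from 1562.4 on the control array to 2145.2 on the KO array (0.03, while its 3 probe sets averaged 0.19 ± 0.19, SD), and Ndufs1, with several iron-sulfur clusters, from 833.6 to 1089.9 (-0.04); both were chosen after their values were seen. Ndufs8, another core subunit chosen after its values were seen, had -0.12 on its brightest probe set, but its 6 probe sets averaged 0.09 ± 0.25 (SD between probe sets). The 27 accessory subunits, which surround and stabilise the core, had a median of 0.09 and, over more genes, a wider range, from -0.63 to 0.36. The low end was set by Ndufb1, near the floor, followed by Ndufa13 and Ndufb7 on chromosome 8. Of the 27, 19 lay above the shift, where 50% of all genes lay below it by construction.

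The brightest accessory subunits were Ndufa1 and Ndufa7. Ndufa1, a small membrane subunit encoded on the X chromosome, went from 2455.5 to 3773.0 (0.19). Ndufa7 went from 3021.1 to 3928.1 (-0.05), and its 5 probe sets averaged 0.14 ± 0.20 (SD). The highest ratio was that of Ndufb5, a subunit of the membrane arm, which went from 1380.1 to 2378.3 (0.36). Its other probe set gave 0.26, so both lay above the shift. Ndufa6, a subunit of the LYR family, went from 924.9 to 1463.9 (0.24). Ndufab1, the mitochondrial acyl carrier protein that is also part of complex I, went from 1332.3 to 2155.7 (0.27) on its brightest probe set and from 315.5 to 336.6 (-0.33) on another, so its direction depended on the probe set.

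The lowest accessory subunits were Ndufb1, Ndufa13 and Ndufb7. Ndufb1 was the 1 gene of the set at least 1.5-fold lower, with signals of 111.2 and 96.3 (-0.63, or 1.55-fold), not far above the floor of either array. Ndufa13, also known as GRIM-19, went from 1412.8 to 1384.2 (-0.45), and Ndufb7, a subunit on the outer face of the inner membrane, from 1327.8 to 1356.9 (-0.39, with -0.16 on its other probe set). Both lie on chromosome 8. Ndufb11, an X-linked membrane subunit chosen after its values were seen, went from 1152.9 to 1202.2 (-0.36). Its 3 probe sets averaged -0.35 ± 0.01 (SD between probe sets), so this low ratio was shared by every probe set of the gene. Ndufb4 had its only single-gene probe set below the floor on both arrays (42.8 and 43.4).

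Complex II oxidises succinate and links the citric acid cycle to the chain. Its 4 genes had ratios between -0.15 and 0.11. Sdha, the flavoprotein that binds succinate, went from 1322.7 to 1598.6 (-0.15), and Sdhb, the iron-sulfur subunit, from 1173.3 to 1436.0 (-0.13). The membrane anchors Sdhc and Sdhd went from 1259.6 to 1754.7 (0.05) and from 894.0 to 1294.8 (0.11). On the brightest probe sets the catalytic pair thus lay below the shift and the anchor pair above it. The second probe sets of Sdhc and Sdhd gave -0.20 and -0.0036. All 4 ratios of the brightest probe sets are smaller than the SD between probe sets.

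Complex III passes electrons from ubiquinol to cytochrome c. Its 8 genes ran from -0.22 to 0.27. Uqcrb, which helps form the quinone site, was the brightest and the lowest, at 5750.8 and 6644.6 (-0.22, and -0.11 with lowess). The core proteins Uqcrc1 (1832.5 and 2454.5) and Uqcrc2 (1482.7 and 1866.4) had -0.0037 and -0.09, and the hinge protein Uqcrh (1903.3 and 2598.4) had 0.02. The highest were the small accessory subunits Uqcr11 (1173.5 and 1838.8, ratio 0.22), Uqcrq (1151.1 and 1828.4, 0.24) and Uqcr10 (941.7 and 1520.8, 0.27). For Uqcr10 the mean over 3 probe sets was 0.05 ± 0.19 (SD), so its place at the top rests on the brightest probe set.

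Complex IV, cytochrome c oxidase, reduces oxygen to water. Of 16 genes, 15 were above the floor on both arrays, and 10 of the 15 lay below the shift, as did 50% of all genes by construction. The brightest were Cox5a (6032.2 and 7555.7, ratio -0.10) and Cox7a2 (5375.6 and 6883.9, ratio -0.07). The highest were Cox6b2, Cox8a (2027.6 and 3262.6, ratio 0.26) and Ndufa4 (2183.1 and 3300.4, ratio 0.17), which was named as a complex I subunit but is known as a part of complex IV and is counted there. The lowest were Cox4i2, Cox4i1 and Cox7c. Cox7c was read from a dim probe set (65.9 and 74.3, ratio -0.25) only just above the floor of each array.

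Complex V makes ATP, with a catalytic head, a stalk and a membrane ring. Its 17 genes had an interquartile range of 0.13. The catalytic subunit Atp5b was among the brightest, at 6054.5 and 7937.7 (-0.03). The lowest ratios were those of Atp5g3, of the ring, Atp5e, a small subunit of the central stalk (807.9 and 973.8, ratio -0.16), and Atp5k (1683.5 and 2082.6, ratio -0.12). The highest were Atp5g1, also of the ring, Atp5l, a membrane subunit near the stalk (1379.0 and 2343.7, ratio 0.34), and Atp5md, a small membrane subunit (753.7 and 1232.0, ratio 0.28). Atp5k and Atp5l both encode small membrane subunits found at the contacts between neighbouring synthase units, and their ratios lay on opposite sides of the shift.

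The 3 genes of the ATP synthase ring gave unequal ratios on this array pair, although their mature proteins are known to be the same. Atp5g1 went from 1346.8 to 2612.9, the highest ratio of all 86 genes (0.53), at the 94.5 percentile of all genes above the floor on both arrays. Atp5g2 went from 2760.9 to 3738.7 (0.01). Atp5g3 went from 7073.4 to 8107.6 (-0.23, and -0.10 with lowess). The ratio of Atp5g1 exceeded that of Atp5g3 by 0.76 and that of Atp5g2 by 0.52. The SD of 0.24 between probe sets of a gene describes single readings, not a difference between genes, and is not replicate error. Atp5g1 was also the extreme of 86 genes. With 1 array per group, whether the 3 genes differ beyond the spread between cultures was not tested. Each of the 3 was read from 1 probe set above the floor. In the promoter windows, NRF1 letters were found for Atp5g2 and Atp5g3 and not for Atp5g1; the match of Atp5g3 did not lie within the printed bases before the start.

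Tissue forms of complex IV subunits were compared with their ubiquitous counterparts. Cox6b2, the testis form of the subunit at the contact within the complex IV dimer, went from 654.4 on the control array to 1251.8 on the KO array. Its log2 ratio of 0.51 was the highest of complex IV, at the 94.0 percentile of all genes, and as deposited it was 0.94. Cox6b1, the ubiquitous form, went from 3381.3 to 4129.8 (-0.14), so the testis form exceeded it by 0.65. Cox6b2 had 1 probe set, and it stayed between 0.49 and 0.55 over the settings other than the deposited scale.

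Cox8c, a testis form of the smallest subunit, gave unequal readings. Its brightest probe set went from 492.9 to 636.4 (-0.06), and a dimmer one from 77.5 to 207.0 (0.99), for a mean of 0.47 ± 0.74 (SD between 2 probe sets). Cox8a, the ubiquitous form, had 0.26, with 0.20 on its other probe set. Cox8b, the heart and muscle form, was below the floor on both arrays (3.3 and 29.3) and has no ratio. The brightest probe sets of the testis forms thus gave 0.51 for Cox6b2 and -0.06 for Cox8c.

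The muscle and lung forms gave signals near the floor on both arrays. Cox4i2, a lung-enriched and oxygen-sensitive form, had signals of 123.3 and 114.9 (-0.53), and Cox4i1, its ubiquitous counterpart, 4472.0 and 4860.4 (-0.31). Cox4i1 lies on chromosome 8 and was also among the brightest genes, with -0.22 under lowess. Cox6a2 (95.3 and 114.8) and Cox7a1 (126.5 and 159.8), the muscle forms, had -0.16 and -0.09, where Cox6a1 (4314.9 and 6301.6) and Cox7a2 had 0.12 and -0.07. Of 8 muscle markers, 3 lay under both floors (Myog, Myh7 and Myl2) and 5 were above both (Myod1, Actc1, Acta1, Myh6 and Ckm). The brightest of these were Ckm on the control array (128.8) and Acta1 on the KO array (252.9). The 8 markers summed to 497.4 in the control and 846.0 in the KO, of which Acta1 made 94.3 and 252.9. Their part in the ratios of the muscle forms was not tested. Ndufa4l2, a hypoxia-related paralog of Ndufa4, was below the floor on the control array (24.1) and at 85.0 on the KO array, which gives a bound of at least 1.04-fold higher.

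Respiratory chain genes on chromosome 8 had low ratios, as did the rest of that chromosome. The 3 genes, Cox4i1, Ndufb7 and Ndufa13, had ratios of -0.31, -0.39 and -0.45, a median of -0.39, and the median over the 598 other measured genes of the chromosome was -0.37, with 90.3% of them below the shift. As deposited the 3 had 0.12, 0.03 and -0.03. The position on this chromosome and any effect on the respiratory chain cannot be told apart for these genes. Without chromosome 8 the median was 0.07 for complex I and -0.06 for complex IV, and 0.02 over all measured members. The 2 members on the X chromosome, Ndufa1 and Ndufb11, had 0.19 and -0.36, and the other X-linked genes a median of -0.08.

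Assembly factors and related proteins taken in by the symbol rule were 10 genes, 9 of them above the floor on both arrays, with ratios from -0.37 to 0.20. The complex I assembly factors Ndufaf1, Ndufaf2, Ndufaf3, Ndufaf4, Ndufaf5, Ndufaf6 and Ndufaf7 had between -0.14 and 0.08. Ndufaf8 was the lowest on its brightest probe set (481.2 and 498.6, ratio -0.37), but the other gave 95.8 and 233.6 (0.86), for a mean of 0.24 ± 0.87 (SD between 2 probe sets). Cox7a2l, which helps join complexes III and IV into supercomplexes, went from 1215.5 to 1870.3 (0.20, with a mean of 0.27 ± 0.32 over 3 probe sets). Across all members, 2 of the 44 genes with several probe sets, Ndufaf8 and Cox8c, had probe sets over 2-fold apart. In 26 of the 44 every probe set lay on 1 side of the shift, and the median range within a gene was 0.14. These counts were not made over all genes, so whether they differ from the usual agreement between probe sets was not tested.

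**Figure D4:**
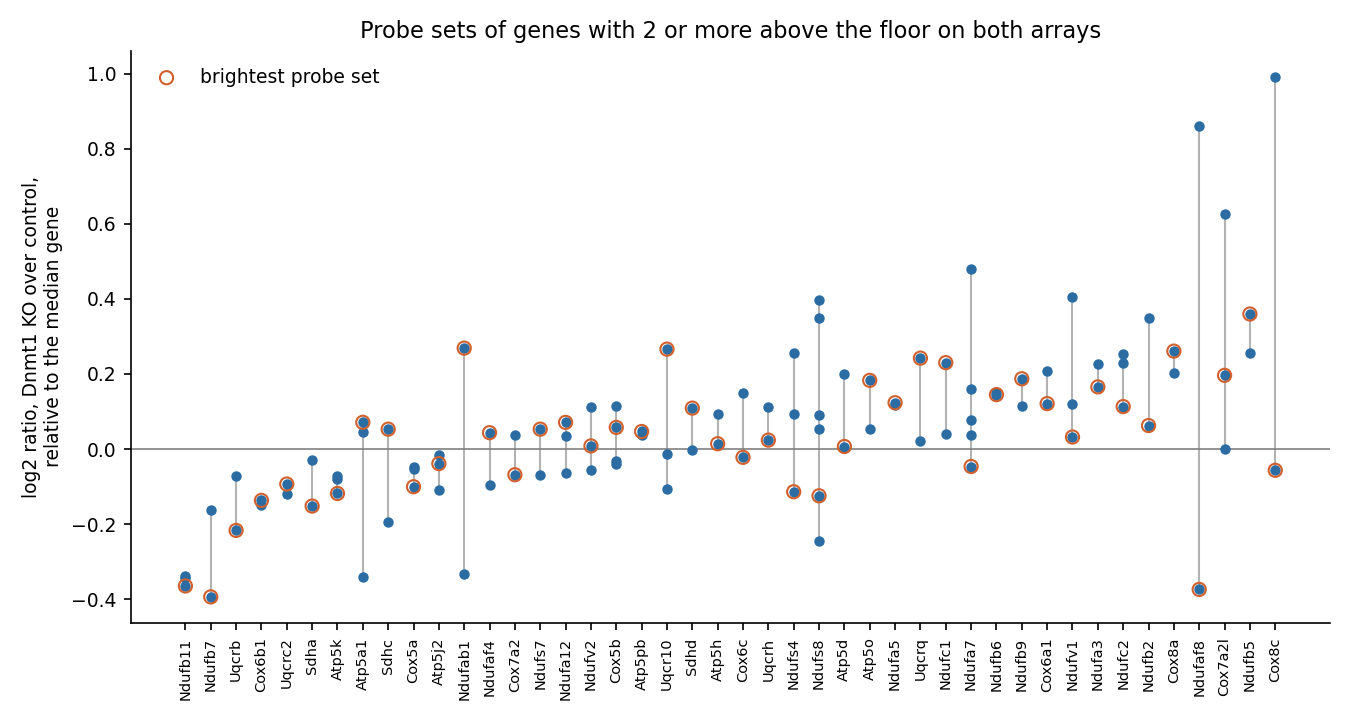
Log2 ratio of every probe set above the floor on both arrays (vertical axis) for the 44 genes with at least 2 of them, ordered by their mean, with a ring around the brightest. Ndufb11 has its 3 probe sets together at the low end, while those of Ndufaf8 and Cox8c are over 2-fold apart.

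Other genes that serve the same pathway were read from lists, and the genes named from them were picked after their values were seen. Of 11 measured respiratory chain genes outside the symbol rule, 1 was 2-fold higher and none 2-fold lower, where 1.09% and 0.532% of all genes were, and the median was 0.03. The 1 was Cyct, the testis form of cytochrome c (77.2 and 263.2, ratio 1.34), while Cycs, the somatic form, had -0.07 (4894.5 and 6263.1). Cyc1, the cytochrome c1 subunit of complex III, had 0.02. Etfdh, which feeds electrons from fatty acid oxidation into the chain, went from 233.8 to 176.0 (-0.84). The mitochondrially encoded ND5 went from 3881.3 to 5569.2 (0.10).

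Of 36 measured assembly genes, none was 2-fold different relative to the shift, where 1.09% of all genes were higher and 0.532% lower. As deposited, 3 were 2-fold higher (4.92% over all genes), and the median relative to the shift was 0.07. Those 3 were also at least 1.5-fold higher relative to the shift (4.74% over all genes): the complex I assembly factor Acad9 (303.0 and 707.8, ratio 0.80) and the ATP synthase assembly factors Atpaf1 (169.8 and 374.8, ratio 0.72) and Atpaf2 (92.6 and 200.1, ratio 0.69). None of the complex V subunits reached such a ratio. Of 17 citric acid cycle and pyruvate dehydrogenase genes, none was 2-fold different and the median was -0.01, with citrate synthase, Cs, at 0.29 (1694.8 and 2786.3). Of 76 mitochondrial ribosomal protein genes, none was 2-fold different relative to the shift, 1 was 2-fold higher as deposited, and the median was 0.10. They ran from -0.54 for Mrps30 to 0.64 for Mrps11.

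None of 20 measured regulators of the pathway and of mitochondrial DNA was 2-fold different relative to the shift. Over all genes, 1.09% were 2-fold higher and 0.532% were 2-fold lower. As deposited, 1 regulator was 2-fold higher (4.92% over all genes), and the median relative to the shift was 0.05. The transcription factors Nrf1 (357.4 and 488.0), Gabpa (600.5 and 832.0), Yy1 (1750.8 and 2448.8) and Esrra (106.8 and 148.8) had ratios of 0.02, 0.05, 0.06 and 0.05. Tfam, which packages mitochondrial DNA, had 0.11 (1069.8 and 1552.0). The coactivator Ppargc1b went from 93.0 to 226.7 (0.86), and Ppargc1a was below the floor on both arrays.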

How the data were processed

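The authors deposited 1 signal intensity for each probe set, made with MAS5 per the submitters' processing notes. Its target intensity and between-array scaling were not stated there, and no detection calls were used. Both arrays gave 45101 values, of which 64 Affymetrix control probe sets were left out. Genes were named from the platform annotation and updated by gene identifier to RefSeq (GRCm38.p6), which held 34741 of 34945 single-gene probe sets. Intensities under the array median were raised to it, each gene's brightest probe set gave its log2 ratio, which was centred on the median of genes above the floor on both arrays. A gene above the floor on 1 array has only a bound. With 1 array per group, genes were counted past 2-fold and no p-value was computed; the number of arrays limits the precision. Named were, in each complex, the 2 brightest, 3 highest and 3 lowest genes. Also named were genes past 1.5-fold, genes at the floor on 1 array, genes on chromosome 8, paralog groups, and genes whose probe sets differed over 2-fold. Most other named genes are marked as picked with their values in view. The members and lists were chosen with earlier results of these data known. Promoter sequences are from RefSeq. The procedure was tested on simulated data with large changes in genes well above the floor. That setting does not cover small ratios or genes near the floor. Python 3.11.15 with pandas 2.3.3 and statsmodels 0.14.6 was used. Alternatives covered centring, quantile normalization, lowess, the floor, the probe set rule, the fold threshold and chromosome 8.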

Additional observations from a re-analysis of the deposited data

How the results depend on the processing

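Counts and medians were recomputed under other scalings, floors, probe set rules and fold thresholds, and leaving out an array was not possible with 1 per group. No paired analysis was possible because each group had 1 array. On the deposited scale, 3 of 86 genes lay below 0, and the median log2 ratio was 0.44 over all members, 0.49 for complex I, 0.38 for complex II, 0.47 for complex III, 0.36 for complex IV and 0.43 for complex V, which turned the sign of complexes II and IV. On that scale the pathway lists had 0.45 for the respiratory chain genes outside the symbol rule, 0.50 for assembly genes, 0.42 for the citric acid cycle list, 0.47 for regulators and mitochondrial DNA genes, 0.52 for mitochondrial ribosomal proteins and 0.42 for glycolysis, with the sign turned for the citric acid cycle and glycolysis lists. In the other settings run on them, the median over all members stayed between 0.01 and 0.05, complex I between 0.03 and 0.10, complex II between -0.07 and 0.0003, complex III between 0.03 and 0.09, complex IV between -0.07 and 0.02 and complex V between -0.02 and 0.06, so that the sign changed for complexes II, IV and V. The count of members 2-fold higher rose from 0 to 1 with a floor at the 25th percentile (Ndufa4l2, 1.41) and to 2 with no floor (Ndufa4l2, 1.39, and Cox8b, 2.43), by construction, since both have a signal below the floor of at least 1 array. Shares over all genes at those floors are not given here. At 1.5-fold 1 gene, Ndufb1, was lower, where 4.25% of all genes were. With the mean over probe sets, Cox8c moved to 0.48, Ndufab1 to -0.02 and Ndufaf8 to 0.26. Genes near the floor, such as Ndufb1, Cox7c, Cox4i2, Cox6a2 and Cox7a1, could not be called present or absent without detection calls.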

Other observations

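Glycolysis, the other main source of ATP, was read from a list of its genes. Of 19 measured, 1 was 2-fold higher relative to the shift (1.09% over all genes), 2 were 2-fold higher as deposited (4.92% over all genes), and none was 2-fold lower (0.532% over all genes). The median relative to the shift was -0.01. The 1 was Pfkp, a phosphofructokinase, which went from 523.6 on the control array to 1415.0 on the KO array (log2 ratio 1.01). Ldhb, a lactate dehydrogenase subunit, went from 582.1 to 1315.2 (0.75), while Ldha, the other main subunit, had -0.05 (5813.6 and 7555.6). The glucose transporters Slc2a1 and Slc2a3 had 0.06 and 0.05, and hexokinases Hk1 and Hk2 had -0.002 and -0.01. Aldoc had the lowest ratio of the list (175.6 and 168.3, ratio -0.49). These genes were picked from the list after their values were seen.

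Testis forms among the genes of energy metabolism outside the symbol rule were dim on the control array. Ldhc had signals of 45.6 and 104.8, Pdha2 2.6 and 87.8, and Pgk2 5.2 and 3.9, so that Ldhc and Pdha2 were above the floor on the KO array alone and Pgk2 on neither. Their bounds relative to the shift were at least 0.36 for Ldhc and at least 0.10 for Pdha2 on the log2 scale.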
